A study of Mus musculus with 12 samples.

Results

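The 10 genes described here mark or sustain the pluripotent state of mouse cells. They are the transcription factors Pou5f1 (also called Oct4), Sox2 and Sall4, the RNA-binding proteins Lin28a and Lin28b, the developmental pluripotency associated genes Dppa2, Dppa3, Dppa4 and Dppa5a, and the chromatin-bound factor Utf1. They were chosen by name out of the 43346 genes of the deposited table with their D2 and B6 levels already known, and all 10 were among the 17148 genes with enough reads to be tested. That difference is therefore given as a description without a test, and the tests below use the other comparisons. Earlier results of the congenic libraries were known as well, so those tests are not independent of the choice. Lin28a and Dppa3 were singled out in the choice as genes that differ between the strains, beside core factors described as stable. The core factors also had lower levels in D2 than in B6, with log2 differences of -0.38 (Pou5f1), -0.29 (Sox2) and -0.55 (Sall4), and are not called stable here.

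Pou5f1 and Sox2 bind DNA together and switch on the genes of the pluripotent state, and Sall4 works beside them. Lin28a and Lin28b bind the precursors of the let-7 microRNAs and block their maturation, which keeps targets of let-7 such as Hmga2 expressed in early cells. Dppa2 and Dppa4 form a pair that binds chromatin of CpG-rich promoters and is needed for genes of the 2-cell embryo and of the germ line. Dppa3 (also called Stella) keeps the methylation maintenance factor Uhrf1 away from chromatin and protects DNA from losing or gaining methylation in the egg and early embryo. Dppa5a encodes an RNA-binding protein of embryonic stem cells, and Utf1 tempers the activity of developmental genes that Pou5f1-positive cells keep poised.

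RNA was sequenced in mouse embryonic stem cells of 4 genotypes with 3 libraries each. B6 is C57BL/6J and D2 is DBA/2J, both inbred strains. B6-13D2, with the strain name B6.D2-(rs30079041-rs51756099)/Bakr, carries a D2 segment of chromosome 13 on the B6 background, and D2-13B6, with the strain name D2.B6-(rs29224292-rs13469455)/Bakr, carries a B6 segment on the D2 background; none of the 10 genes lies on chromosome 13. The series title places the study in research on genetic variants that act from a distance on heterochromatin and genome contacts. All groups grew in the same way, in serum medium with LIF, the MEK inhibitor PD0325901 and the GSK3 inhibitor CHIR99021, a mixture that holds cells in a naive pluripotent state. Ages and sexes of donor embryos are not given in the sources used here.

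By the protocol each strain is represented by 1 cell line, so an effect of genotype and an effect of the line it was measured in cannot be told apart. For B6 the titles depart from this, since replicate 3 is line B6 4-1 and replicates 1 and 2 are line B6 5-1. The D2 titles name line D2 2-9 and the cell line field names D2 5-5. The series text ends the D2-13B6 segment at rs51756099, the sample labels at rs13469455. Titles call the samples technical replicates and the protocol calls them independent cultures, so p-values here measure only the spread between such samples. In the deposited table, columns of B6-13D2 and D2-13B6 carry an extra leading character. If it marks a batch, that batch holds whole groups and cannot be told apart from being congenic.

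Libraries held 22184196 to 36411799 expected counts, of which the 10 genes took 0.203% to 0.341%. Levels are given as CPM, counts scaled to a common library size, after TMM, a correction for differences in composition between libraries. A gene is said to be called where edgeR's quasi-likelihood test across all 17148 genes gave a Benjamini-Hochberg adjusted p under 0.05. A list of 9 embryonic stem cell markers, Pou5f1 and Sox2 among them, summed to 2989 to 5160 CPM in the 12 libraries, with none at 0. A list of 8 fibroblast markers (Col1a1, Col1a2, Col3a1, Thy1, Postn, Lum, Dcn, Pdgfrb), which embryonic fibroblast feeder cells also express, was detected in full as well. Its sum was 9383 to 10191 CPM in B6, 3095 to 3182 in B6-13D2, 14177 to 16967 in D2, and 7731 to 8055 in D2-13B6, and none of its markers was at 0. In bulk RNA a smaller share of cells of one type and less RNA per cell cannot be told apart. For this reason levels relative to the core factors of the same library are given beside the results.

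**Figure D1:**
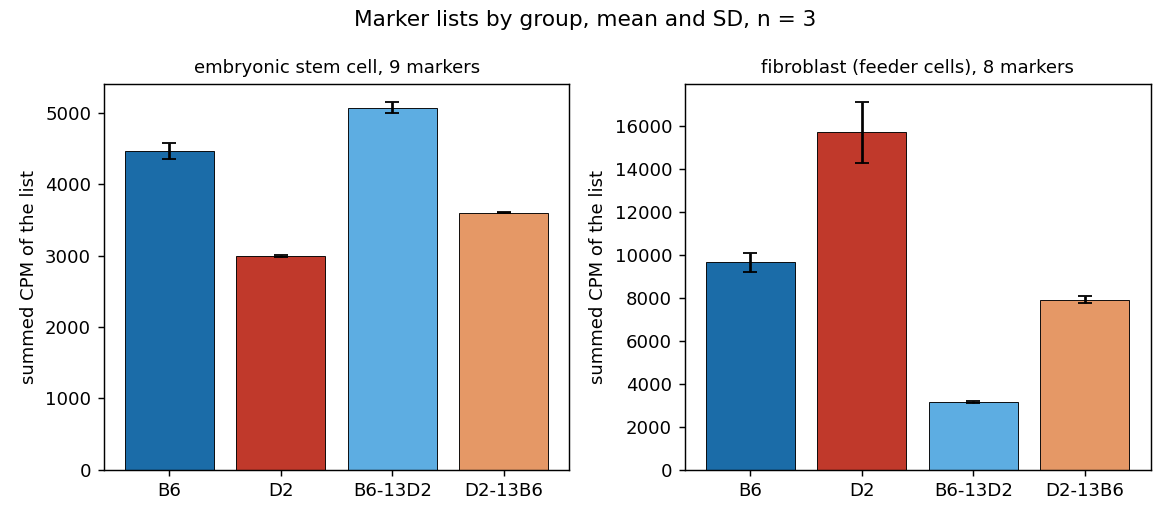
Summed CPM of 9 embryonic stem cell markers (left) and 8 fibroblast markers (right) by group; bars are means over 3 libraries and error bars are the SD, on linear axes from 0. The stem cell sum was highest in B6-13D2 (5001 to 5160 CPM) and lowest in D2 (2989 to 3017), and the fibroblast sum was lowest in B6-13D2 (3095 to 3182) and highest in D2 (14177 to 16967).

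The 2 Lin28 paralogues, which differed in how they varied between backgrounds, are shown first at the level of sequence. The letters are those of the reference build. Sequences of the strains were not compared, and a link between these letters and the levels was not tested. RefSeq promoter entries (GRCm38.p6) were matched by symbol for 5 of the 10 genes: Pou5f1, Sox2, Lin28a, Lin28b and Utf1. The Lin28a window lies at chr4:134018842-134019066 on the minus strand, and the Lin28b window at chr10:45470202-45470451 on the minus strand; for Lin28b, GENCODE M21 also annotates transcription from farther upstream. Both are printed 5′ to 3′ and end before the first annotated base of the transcript, and capitals mark the letters CATTGT, the core that SOX factors recognise.
Lin28a: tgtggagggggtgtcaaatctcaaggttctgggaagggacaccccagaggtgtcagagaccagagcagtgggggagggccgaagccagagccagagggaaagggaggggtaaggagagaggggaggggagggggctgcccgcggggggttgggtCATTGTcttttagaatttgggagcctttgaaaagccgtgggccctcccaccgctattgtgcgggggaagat
Lin28b: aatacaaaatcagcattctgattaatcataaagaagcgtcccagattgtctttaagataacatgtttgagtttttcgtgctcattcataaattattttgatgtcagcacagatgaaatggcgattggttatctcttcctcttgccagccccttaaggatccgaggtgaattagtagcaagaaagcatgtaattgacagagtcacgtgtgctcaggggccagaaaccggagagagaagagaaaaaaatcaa
CATTGT (or ACAATG on the other strand) occurred 1 time in the Lin28a window and 0 times in that of Lin28b, and 10.7% of 32851 promoter windows of 250 bases held it. The search covered the same 250 bases before each RefSeq start, of which 225 are printed for Lin28a. CATTGT also occurred 1 time before 1 of the 2 starts of Pou5f1. The E-box CACGTG, a palindrome, occurred 1 time in the Lin28b window and 0 times in that of Lin28a, against 6.02% of all windows. The octamer ATGCAAAT (or ATTTGCAT), which POU factors such as Pou5f1 recognise, was in 1.60% of all windows and in none of the 5 genes. The GC box GGGCGG (or CCGCCC) was in 32.7% of all windows, with 4 matches for Utf1, 2 for Sox2, 1 for Pou5f1 and 0 for both Lin28 genes. No window held more than 1 kind of these motifs, and a match describes letters in a window only.

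Across the genes, D2 had lower values than B6 for 8 of the 10, beside 49.1% of all genes with a lower value of any size, and higher values for 2, Dppa2 and Utf1. The libraries of the 2 strains did not overlap for any of the 10. Over all genes tested, 62.0% had no overlap between D2 and B6 and 60.0% were called (29.8% higher, 30.3% lower), so nothing is read from that count, which the choice of the genes had in view. The log2 differences ranged from -1.94 for Dppa3 to 0.58 for Utf1, with a median of -0.34 beside 0.01 for all genes, and only Lin28a and Dppa3 had a size of at least 1, beside 11.3% of all genes called at that size. The comparison of D2-13B6 with B6-13D2 measures the D2 against the B6 background in 6 libraries outside the strain difference that the choice names, although the lines also carry opposite segments. In it 7 of the 10 genes were called, of which 2 were higher and 5 lower on the D2 background, beside 70.2% of all genes called (38.4% higher, 31.8% lower), a share the 10 genes do not exceed. The libraries did not overlap for 7 of the 10, beside 74.9% of all genes. The sign was the same in both comparisons for 7 of the 10 genes, beside 75.4% of all genes. A size of at least 1 on the log2 scale was passed by 3 of the called genes, Lin28a, Dppa3 and Dppa2, beside 22.1% of all genes.

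**Figure D2:**
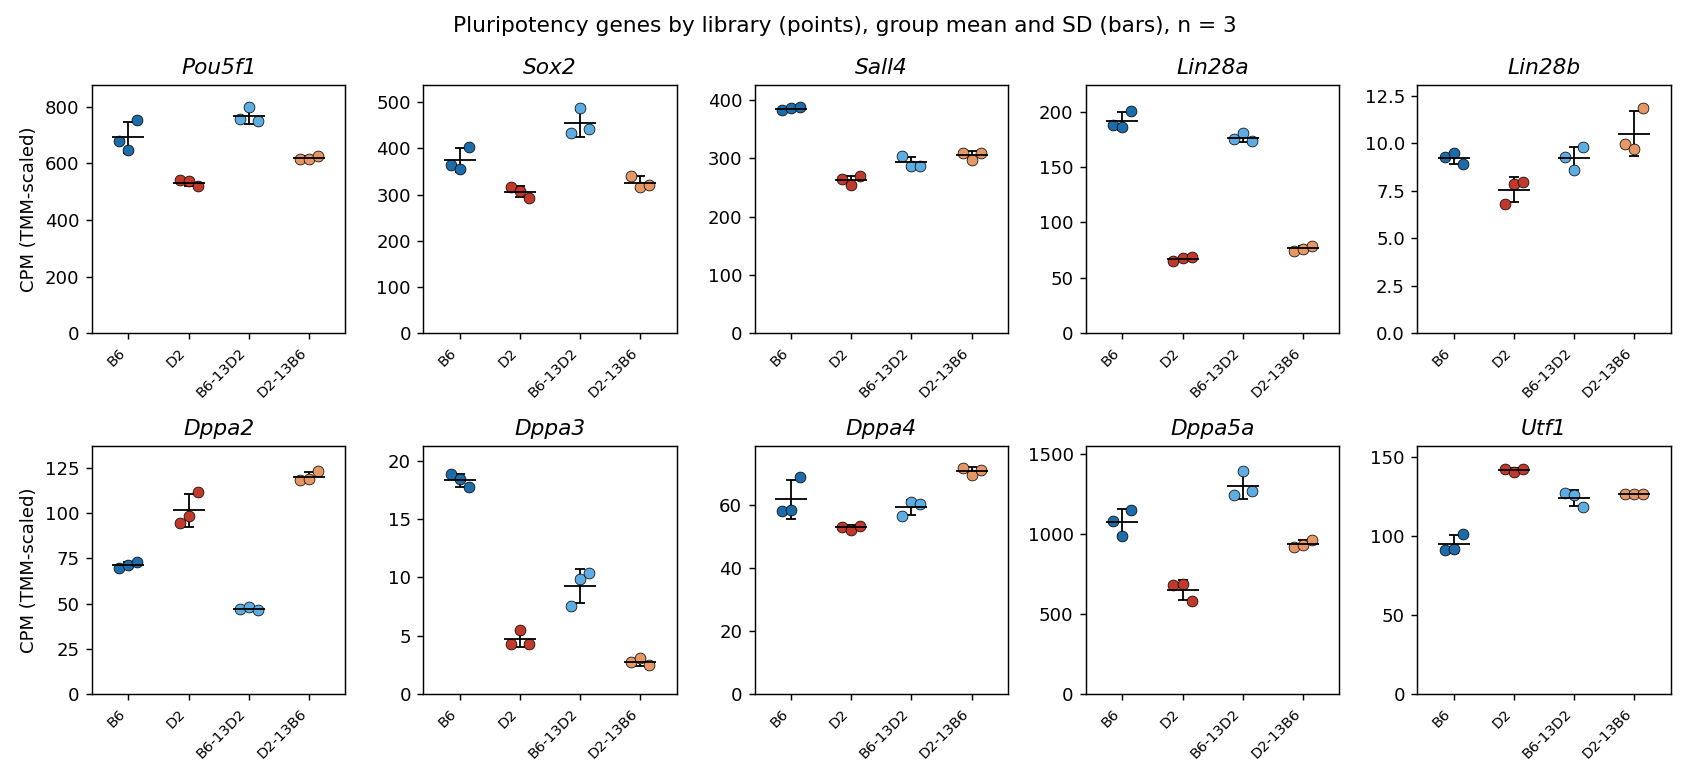
Level of each gene in CPM (linear axis from 0) in the 12 libraries, with points for libraries, a horizontal line for the mean and error bars for the SD of 3 libraries. Lin28a stayed between 173 and 201 CPM on the B6 background and between 65.1 and 78.7 on the D2 background, while Utf1 and Dppa2 were higher in D2 than in B6.

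The core factors differed by less than Lin28a, Dppa2 and Dppa3 between the congenic lines, without being equal between groups. Pou5f1, the POU-domain factor without which the inner cell mass does not become pluripotent, had 678, 645 and 752 CPM in B6, 755, 797 and 747 in B6-13D2, 539, 537 and 518 in D2, and 615, 614 and 626 in D2-13B6. The D2-13B6 libraries were all below those of B6-13D2, and those of D2 below those of B6. The log2 difference was -0.38 (SE 0.0450) between the strains and -0.31 (SE 0.0447; edgeR adjusted p 6.96e-06) between the congenic lines, so Pou5f1 fell by 0.31 on the log2 scale in D2-13B6, or 1.24-fold.

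Sox2, the partner of Pou5f1 on composite DNA sites, had 365, 355 and 404 CPM in B6, 432, 487 and 442 in B6-13D2, 316, 309 and 293 in D2, and 341, 316 and 319.7 in D2-13B6. B6-13D2 was the highest group in all of its libraries. Sox2 was 0.29 lower in D2 than in B6 on the log2 scale, a difference of -0.29 (SE 0.0523), and fell by 0.48 in D2-13B6 against B6-13D2 (SE 0.0518; edgeR adjusted p 1.94e-07). The fibroblast sum was higher in D2-13B6 (7731 to 8055 CPM) than in B6-13D2 (3095 to 3182), and its part in the lower Pou5f1 and Sox2 was not tested.

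Sall4, a zinc finger factor of the same network, did not follow Pou5f1 and Sox2. It had 383, 386 and 388 CPM in B6, 305, 287 and 287 in B6-13D2, 264, 254 and 269.7 in D2, and 309, 298 and 309.9 in D2-13B6. B6 stood above the other 3 groups, and the congenic lines overlapped. Its log2 difference was -0.55 (SE 0.0348) between the strains and 0.06 (SE 0.0345; edgeR adjusted p 0.121) between the congenic lines, with an interval of 2 SE from -0.01 to 0.13; without B6-13D2 replicate 1 it was called, at 0.09 (edgeR adjusted p 0.0478), and without replicate 2 or 3 of that line it was 0.041 (adjusted p 0.367 and 0.379). It was 0.022 in a fit of the compared libraries alone and 0.036 with mean CPM 1 as the filter, not called in either. Sall4 fell by 0.40 in B6-13D2 against B6 (SE 0.0346; edgeR adjusted p 2.00e-08), and in D2-13B6 against D2 it rose by 0.22 (SE 0.0347; edgeR adjusted p 3.05e-05). Counts of Pou5f1 and Sall4 were whole numbers in none of the 12 libraries and those of Sox2 in all 12, so for the first pair some reads were divided with other loci and their levels are uncertain to that extent. Annotated transcripts on the other strand of both genes had at most 0.364 and 0.395 CPM; the long transcript that spans Sox2 was not analysed here.

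Lin28a, which holds let-7 precursors back from processing, separated by background. In B6 it had 188, 186 and 201 CPM and in D2 65.1, 67.6 and 68.4. The congenic lines kept near the strain of their background, with 176, 181 and 173 CPM in B6-13D2 and 74.6, 76.1 and 78.7 in D2-13B6. The means were 191 ± 8.04 and 177 ± 4.07 CPM in B6 and B6-13D2, and 67.0 ± 1.73 and 76.5 ± 2.08 CPM in D2 and D2-13B6 (SD, n = 3). All 6 libraries of the B6 background were above all 6 of the D2 background. Of all genes, 62.0% had no overlap between D2 and B6 and 74.9% had none between the congenic lines. The log2 difference was -1.51 (SE 0.0397), or 2.85-fold, between the strains. Between the congenic lines Lin28a fell by 1.21 (SE 0.0385; edgeR adjusted p 1.38e-14), or 2.31-fold.

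The differences of Lin28a with the segment were small beside those with the background. In D2-13B6 against D2 Lin28a rose by 0.19 (SE 0.0404; edgeR adjusted p 0.000623). Against B6, Lin28a fell by 0.12 in B6-13D2 (SE 0.0373; edgeR adjusted p 0.0123), a call that was lost with RLE size factors (-0.05, adjusted p 0.227), with DESeq2, without the filter, with mean CPM 1 as the filter, in the compared libraries alone, without B6 replicate 3 and without B6-13D2 replicate 3. Lin28a counts were whole numbers in all 12 libraries, and an annotated transcript on its other strand had at most 0.0680 CPM. The gene lies at 134003330 to 134018841 of chromosome 4 (GRCm38, minus strand).

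Fibroblast markers were also higher in D2-13B6 than in B6-13D2, all 8 of them, by 1.01 to 2.31 on the log2 scale, and their part in the Lin28a result was not tested. Relative to the mean log2 CPM of Pou5f1, Sox2 and Sall4 in the same library, Lin28a was 0.96 lower in D2-13B6 than in B6-13D2, a difference of -0.96 or 1.95-fold, with no overlap of libraries. The exact two-sided permutation p was 0.1, the smallest that 3 against 3 libraries can give. With Pou5f1 alone as the reference the difference was -0.90.

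Lin28b, the paralogue that acts on let-7 mainly in the nucleus, was low in all groups and did not show the pattern of Lin28a. It had 9.27, 9.49 and 8.87 CPM in B6, 9.28, 8.59 and 9.78 in B6-13D2, 6.79, 7.87 and 7.97 in D2, and 9.95, 9.71 and 11.8 in D2-13B6. The congenic lines overlapped at 9.71 to 9.78 CPM, and the D2 libraries were the lowest. The log2 difference was -0.28 (SE 0.0977) between the strains and 0.18 (SE 0.0891; edgeR adjusted p 0.0735) between the congenic lines, with an interval of 2 SE from 0.01 to 0.36; without D2-13B6 replicate 2 it was called, at 0.23 (edgeR adjusted p 0.0467), and without D2-13B6 replicate 3, its highest library, it was 0.092 (adjusted p 0.380). Lin28b rose by 0.47 in D2-13B6 against D2 (SE 0.0922; edgeR adjusted p 0.000299). Relative to the core factors it was 0.12 higher in D2 than in B6, opposite in sign to the difference in CPM, and the libraries overlapped on that scale. The within-library log2 ratio of Lin28a to Lin28b was 1.39 lower in D2-13B6 than in B6-13D2, a difference of -1.39 with an exact permutation p of 0.1, the smallest possible.

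Dppa2, a SAP-domain protein of CpG-rich chromatin, was higher on the D2 background, where Lin28a and Dppa3 were lower. It had 69.8, 71.2 and 73.0 CPM in B6, 46.8, 47.8 and 46.2 in B6-13D2, 94.6, 98.3 and 112 in D2, and 118, 119 and 123 in D2-13B6. No group overlapped another, and the congenic lines stood farther apart than the strains did. Dppa2 was 0.51 higher in D2 than in B6 (SE 0.0499) and rose by 1.36 (SE 0.0502; edgeR adjusted p 9.37e-14), or 2.56-fold, in D2-13B6 against B6-13D2. The D2 segment on the B6 background went with a fall of Dppa2, of -0.60 (SE 0.0525; edgeR adjusted p 1.83e-08). On the D2 background the B6 segment went with a rise of 0.25 (SE 0.0474; edgeR adjusted p 0.000236). Relative to the core factors Dppa2 was 3.03-fold higher in D2-13B6 than in B6-13D2 (exact permutation p 0.1). Its counts were whole in only 2 of 12 libraries, so part of its reads was divided with other loci.

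Dppa4, whose protein pairs with that of Dppa2, starts 20.175 kb from Dppa2 on chromosome 16 and is annotated on the same strand, from 48283733 to 48294237, beside 48303908 to 48319723 for Dppa2. It had 57.9, 58.3 and 68.7 CPM in B6, 56.4, 61.0 and 60.1 in B6-13D2, 53.0, 52.0 and 53.4 in D2, and 71.6, 69.2 and 70.9 in D2-13B6. D2 was lowest and D2-13B6 highest, with no overlap of either with any other group, while B6 and B6-13D2 overlapped. Its log2 difference was -0.22 (SE 0.0558) between the strains, opposite in sign to that of Dppa2, and -0.14 without B6 replicate 3, the library of line B6 4-1. Relative to the core factors Dppa4 was 0.19 higher in D2 than in B6, the same sign as Dppa2 on that scale (0.91). Dppa4 rose by 0.26 (SE 0.0531; edgeR adjusted p 0.000337) between the congenic lines and by 0.42 in D2-13B6 against D2 (SE 0.0539; edgeR adjusted p 2.89e-06). The within-library log2 ratio of Dppa2 to Dppa4 differed by 1.10 between D2-13B6 and B6-13D2, higher in the former (exact permutation p 0.1, the smallest possible), so the neighbouring pair did not keep a fixed proportion.

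Dppa3, the Uhrf1 antagonist of the egg and early embryo, had the largest log2 difference in size of the 10 genes between the strains, between the congenic lines and in each congenic line against the strain of its background. It had 18.8, 18.5 and 17.7 CPM in B6, 7.58, 9.87 and 10.3 in B6-13D2, 4.33, 5.48 and 4.28 in D2, and 2.74, 3.07 and 2.45 in D2-13B6. All 4 groups were apart, in the order B6, B6-13D2, D2, D2-13B6. The means were 18.4 ± 0.556 and 9.26 ± 1.48 CPM in B6 and B6-13D2, and 4.70 ± 0.678 and 2.75 ± 0.311 CPM in D2 and D2-13B6 (SD, n = 3). The log2 difference was -1.94 (SE 0.117), or 3.84-fold, between the strains. Between the congenic lines Dppa3 fell by 1.74 (SE 0.130; edgeR adjusted p 1.35e-09), a larger fall than that of Lin28a in the same comparison (1.21).

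Dppa3 was also lower in both congenic lines than in the strain of their background. Against B6 it fell by 0.99 in B6-13D2 (SE 0.107; edgeR adjusted p 3.05e-07), and it fell by 0.78 in D2-13B6 against D2 (SE 0.144; edgeR adjusted p 0.000148). The D2 segment and the B6 segment thus went with a change in the same direction, and an effect of the segments and an effect of a batch of congenic libraries cannot be told apart. Dppa3 rests on 72 to 440 counts per library, whole in all 12. Relative to the core factors it was 2.78-fold lower in D2-13B6 than in B6-13D2. On that scale its mean was -4.65 in B6 and -5.66 in B6-13D2, and -6.21 in D2 and -7.13 in D2-13B6. The fibroblast sum was lower in both congenic lines than in their background strain, and the stem cell sum was higher; their part in the Dppa3 result was not tested.

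Dppa5a, an RNA-binding protein restricted to pluripotent and germ cells, had 1084, 988 and 1153 CPM in B6, 1242, 1397 and 1266 in B6-13D2, 679.5, 689.8 and 579.7 in D2, and 917, 931 and 962 in D2-13B6. The 4 groups did not overlap, with B6-13D2 highest and D2 lowest. The log2 difference was -0.73 (SE 0.0627) between the strains, and Dppa5a fell by 0.47 (SE 0.0622; edgeR adjusted p 2.13e-06) between the congenic lines. It was higher in each congenic line than in the strain of its background: against B6 it rose by 0.28 (SE 0.0622; edgeR adjusted p 0.000955), and against D2 it rose by 0.53 (SE 0.0625; edgeR adjusted p 1.10e-06). Relative to the core factors the difference between the congenic lines was -0.23, the smallest in size of the 7 genes set against them. Counts were whole in 10 of 12 libraries for Dppa5a and in 9 for Dppa4, so at least the other libraries held divided reads.

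Utf1, which binds chromatin at bivalent genes, had 91.2, 91.4 and 101 CPM in B6, 127, 126 and 118 in B6-13D2, 142, 140.4 and 142 in D2, and 126, 127 and 127 in D2-13B6. The congenic lines overlapped each other and lay between the strains. Its log2 difference was 0.58 (SE 0.0415) between the strains and 0.03 (SE 0.0402; edgeR adjusted p 0.520) between the congenic lines, with an interval of 2 SE from -0.05 to 0.11. The D2 segment went with the higher level on both backgrounds. Against B6, Utf1 rose by 0.39 in B6-13D2 (SE 0.0416; edgeR adjusted p 2.68e-07). With the B6 segment on the D2 background, Utf1 fell by 0.16 in D2-13B6 against D2 (SE 0.0401; edgeR adjusted p 0.00215). Relative to the core factors it was 0.99 higher in D2 than in B6.

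**Figure D3:**
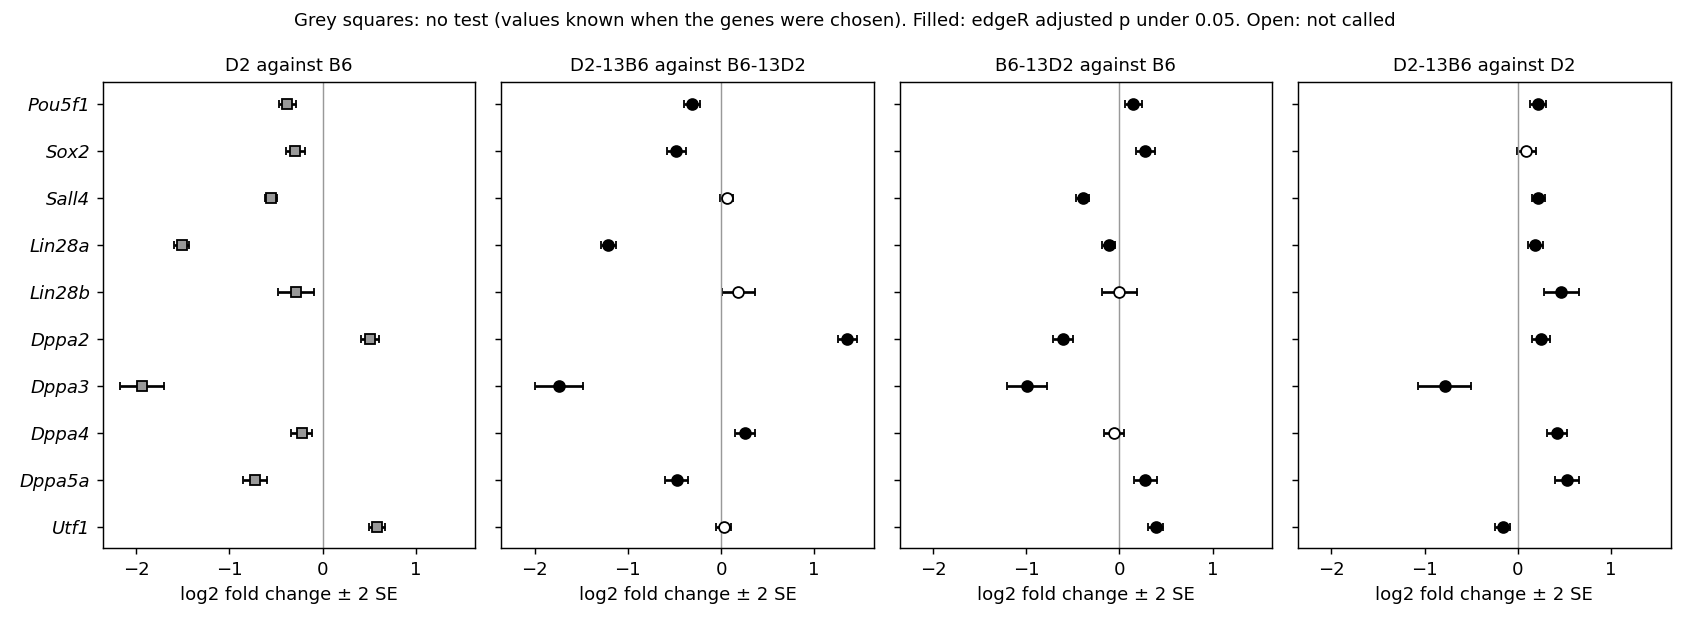
Log2 fold change of each gene in 4 comparisons, with error bars of 2 SE; grey squares carry no test because those values were known when the genes were chosen, filled circles were called by edgeR at an adjusted p under 0.05 and open circles were not. Lin28a and Dppa3 lie at -1.21 and -1.74 and Dppa2 at 1.36 in D2-13B6 against B6-13D2, while Sall4, Lin28b and Utf1 are open.

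The comparisons with the parental strain of the same background address the segment, together with any other difference between the lines, and they share the parental libraries with the comparison that was in view when the genes were chosen. In B6-13D2 against B6, 8 of the 10 genes were called, 4 higher and 4 lower, beside 58.3% of all genes (25.4% higher, 32.9% lower); 7 of the 10 had no overlap, beside 63.2%. The balance over all genes turned with the scaling, as 43.5% of called genes were higher with TMM and 52.0% with RLE size factors, where 4 of the 10 genes were higher and 3 lower. Pou5f1 rose by 0.15 (SE 0.0448; edgeR adjusted p 0.00856), a call lost without B6 replicate 2 (0.10, adjusted p 0.0595), and Sox2 rose by 0.28 (SE 0.0519; edgeR adjusted p 0.000175). Lin28b and Dppa4 were not called. In D2-13B6 against D2, 9 of the 10 genes were called, 7 higher and 2 lower, beside 57.3% of all genes (27.6% higher, 29.7% lower). All 10 had no overlap, beside 62.9% of all genes. No gene of the 10 was called with a size of at least 1 in these 2 comparisons, beside 14.5% of all genes in the first and 8.96% in the second. Dppa3 lay near that size in B6-13D2 against B6, and passed it without B6 replicate 3 (-1.01), B6-13D2 replicate 2 (-1.04) or B6-13D2 replicate 3 (-1.07). Pou5f1 rose by 0.22 in D2-13B6 against D2 (SE 0.0449; edgeR adjusted p 0.000452). Sox2 was not called in D2-13B6 against D2, at 0.09 (SE 0.0521; edgeR adjusted p 0.148), at 0.056 without D2 replicate 3 and at 0.052 with mean CPM 1 as the filter. With both congenic lines set against both strains, a contrast that also measures whether the segment acts alike on the 2 backgrounds, 9 of the 10 genes were called, 6 higher and 3 lower, beside 64.5% of all genes (31.1% higher, 33.4% lower). This contrast is the sum of both differences, so its values are not on the scale of a single comparison. In the sum a size of at least 1 was passed by Dppa3 alone, beside 25.6% of all genes, and its differences on the 2 backgrounds (-0.99 and -0.78) were each under that size. The median of the 10 genes was -0.03 on the B6 background and 0.22 on the D2 background, beside -0.04 and 0.00 for all genes. All 8 fibroblast markers fell in B6-13D2 against B6 and 7 of 8 fell in D2-13B6 against D2, and their part in these results was not tested.

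**Figure D4:**
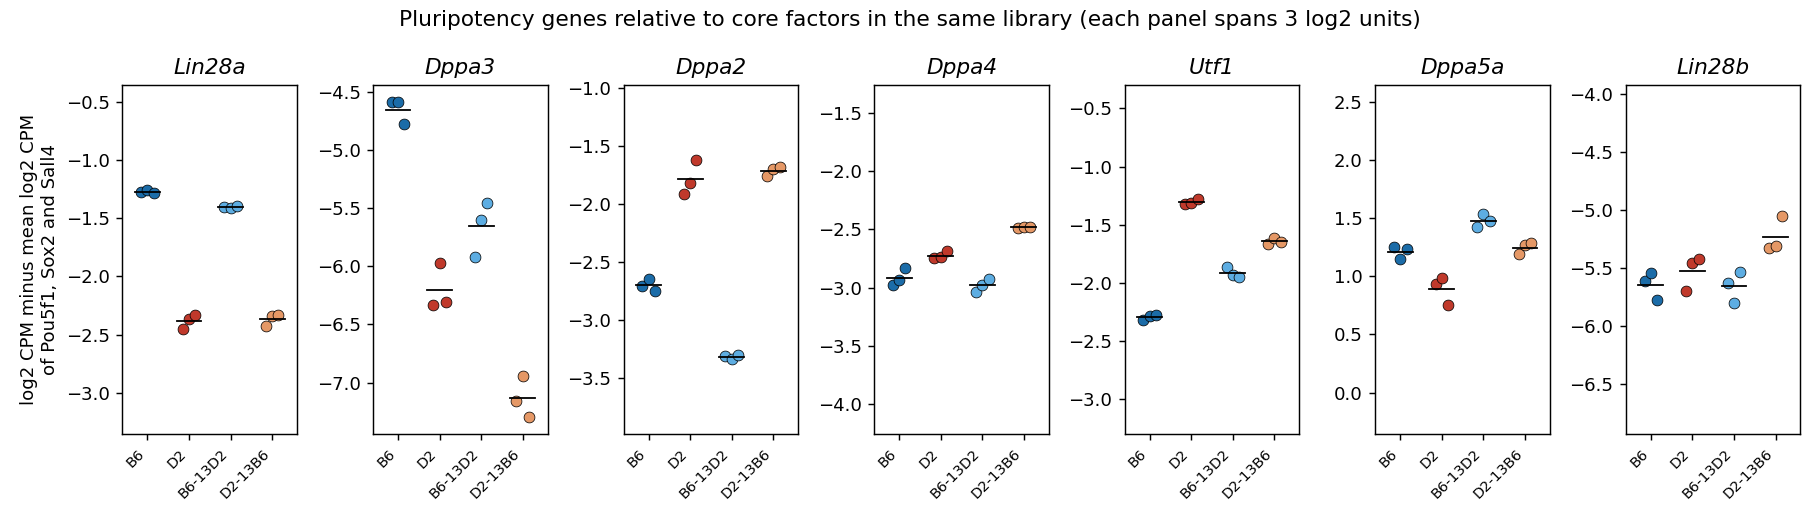
Log2 CPM of 7 genes minus the mean log2 CPM of Pou5f1, Sox2 and Sall4 in the same library; points are libraries, lines are group means, and each panel spans 3 log2 units. Lin28a averaged -1.28 in B6 and -1.40 in B6-13D2 against -2.38 in D2 and -2.37 in D2-13B6, whereas Dppa3 stepped down from -4.65 in B6 to -5.66 in B6-13D2, -6.21 in D2 and -7.13 in D2-13B6.

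Measured against the core factors, Lin28a in the congenic lines lay close to the strain of the same background, differing by -0.13 (B6-13D2 from B6) and 0.014 (D2-13B6 from D2). Dppa2 departed from B6 by -0.61 in B6-13D2 and from D2 by 0.072 in D2-13B6. Dppa3 was lower in both lines than in the strain of their background. Utf1 was the other gene with a large difference of this kind between the strains, 0.99, and the congenic lines differed by 0.27 with D2-13B6 higher. Dppa4 was 0.50 higher and Lin28b 0.43 higher in D2-13B6 than in B6-13D2 on this scale. The reference itself differed between these lines, with Pou5f1 at -0.31, Sox2 at -0.48 and Sall4 at 0.06. Without the reference the log2 differences were smaller, at 0.26 for Dppa4, 0.18 for Lin28b and 0.03 for Utf1, with Lin28b and Utf1 not called. Between the strains, that of Utf1 was 0.58 without the reference.

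Levels of different genes were compared as CPM per kilobase of exon. Dppa5a was the most abundant in every group, at 1736 ± 134 in B6, 2103 ± 134 in B6-13D2, 1049.5 ± 98.3 in D2, and 1513 ± 37.7 in D2-13B6 (SD, n = 3). Pou5f1 followed at 237 to 341 over the group means, then Sox2 at 149 to 221, Utf1 at 77.1 to 115 and Sall4 at 47.4 to 69.6. Dppa3 had rank 9 and Lin28b rank 10 in each group, Lin28b at 0.832 to 1.16 CPM per kilobase. The order changed only in the places between Sall4 and Dppa3. On the B6 background it ran Lin28a, Dppa4, Dppa2, with Lin28a at 47.9 ± 2.01 in B6 and 44.2 ± 1.02 in B6-13D2. On the D2 background it ran Dppa2, Dppa4, Lin28a, with Lin28a at 16.8 ± 0.433 in D2 and 19.1 ± 0.520 in D2-13B6. In no group did the mean ± SD of neighbours in the order overlap, and with the longest transcript in place of all exons every gene kept its rank. The narrowest step with all exons was from Utf1 to Sall4 in B6, at 1.11-fold. With the longest transcript these were 77.1 ± 4.62 and 76.0 ± 0.481 in B6, and their mean ± SD overlapped.

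Genes of the surrounding pathways were taken from lists and are described beside the medians of all genes tested. All 8 fibroblast markers rose in D2-13B6 against B6-13D2, and their part in the changes of these lists was not tested. Of 16 other factors of naive pluripotency, 2 rose and 11 fell in D2-13B6 against B6-13D2 (3 not called), beside 38.4% and 31.8% of all genes, with a median of -0.24 beside 0.06 for all genes. Tfcp2l1, a factor downstream of LIF, was the lowest at -1.11 (SE 0.0333) and Nr0b1, a nuclear receptor that binds Pou5f1, the highest called at 0.15 (SE 0.0553). Nanog, a target and partner of Pou5f1 and Sox2, fell by 0.25 (SE 0.0399), and Fgf4, a growth factor whose enhancer they share, fell by 0.85 (SE 0.0356). Of the 16, 11 rose and 4 fell in B6-13D2 against B6, beside 25.4% and 32.9% of all genes, with a median of 0.16 beside -0.04. In D2-13B6 against D2, 12 rose and 2 fell, beside 27.6% and 29.7% of all genes, with a median of 0.19 beside 0.00. The fibroblast markers fell in these 2 comparisons, 8 of 8 in the first and 7 of 8 in the second, and their part was not tested there either.

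Of 8 genes for the processing of let-7, 1 rose, 4 fell and 3 were not called in D2-13B6 against B6-13D2, beside 70.2% of all genes called (38.4% higher, 31.8% lower), with a median of -0.07 beside 0.06 for all genes. Dis3l2, the exonuclease that degrades let-7 precursors tailed with uridine, fell by 0.54 (SE 0.0712), and Dgcr8, the partner of Drosha, rose by 0.12 (SE 0.0416). Tut4 and Tut7, the uridyl transferases that Lin28a recruits, were at -0.04 (SE 0.0429) and 0.04 (SE 0.0528), and neither was called. Let-7 itself was not analysed here. Of 16 transcripts known as targets of let-7, 6 rose, 8 fell and 2 were not called, against the same shares and median of all genes, with a median of -0.12. The list also named Imp3, an alias of Igf2bp3 that is the symbol of another gene, and it was left out of this count after its value was seen; with it, 3 of 17 were not called. Hmga1, a chromatin protein, fell by 1.24 (SE 0.0367), and Hmga2, its relative that fibroblasts also express, rose by 2.37 (SE 0.0433). Igf2bp3 fell by 0.86 (SE 0.0360) and Igf2bp1 rose by 0.68 (SE 0.0303), both RNA-binding proteins. Myc rose by 1.26 (SE 0.0577), and Trim71, a let-7 target that also belongs to the processing list, fell by 0.16 (SE 0.0361). The targets changed in both directions in this comparison, in which Lin28a was 2.31-fold lower, and a part of Lin28a in these changes was not tested. Of the 16, 11 rose and 3 fell in B6-13D2 against B6, beside 25.4% and 32.9% of all genes, while Lin28a differed by -0.12. Hmga2 and Myc were among those that fell, both at -1.77.

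Of 11 genes for the upkeep and removal of DNA methylation, 5 rose, 4 fell and 2 were not called between the congenic lines, beside 38.4% and 31.8% of all genes, with a median of 0.00 beside 0.06. Uhrf1, the factor that Dppa3 displaces, fell by 0.92 (SE 0.0351) and had mean levels of 554 CPM in B6, 884 in B6-13D2, 416 in D2 and 468 in D2-13B6. Dnmt1, the maintenance methyltransferase that Uhrf1 recruits, fell by 0.43 (SE 0.0340). The methyltransferases of new sites moved the other way, as Dnmt3a rose by 0.93 (SE 0.0425), Dnmt3b by 0.27 (SE 0.0383) and their cofactor Dnmt3l by 0.87 (SE 0.0402). Between the strains Dnmt3a went in the opposite direction, at -0.65 in D2 against B6, while Dnmt3b and Dnmt3l were higher in D2 (0.84 and 1.10). Tet3, a dioxygenase that oxidises methylcytosine, rose by 1.22 (SE 0.0626).

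Of 13 genes that depend on Dppa2 and Dppa4, 5 rose, 7 fell and 1 was not called between the congenic lines, beside 38.4% and 31.8% of all genes, with a median of -0.20 beside 0.06. Of these, 5 are also among the 7 genes of the list for the 2-cell-like state. Duxf3, a regulator of the 2-cell programme, fell by 1.92 (SE 0.533) from a low level of 0.595 CPM to 0.147, and Zfp352 fell by 1.80 (SE 0.489) from 0.426 CPM to 0.125. Zscan4c was at -0.19 (SE 0.110) and was not called. Morc1, a germ line repressor of transposons, rose by 0.30 (SE 0.0590), and Hand1, a mesoderm factor, rose by 4.07 (SE 0.321) from 0.129 CPM to 2.24. Duxf3 belongs to a repeated family among whose copies reads can be divided, and so do the Zscan4 genes.

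**Figure D5:**
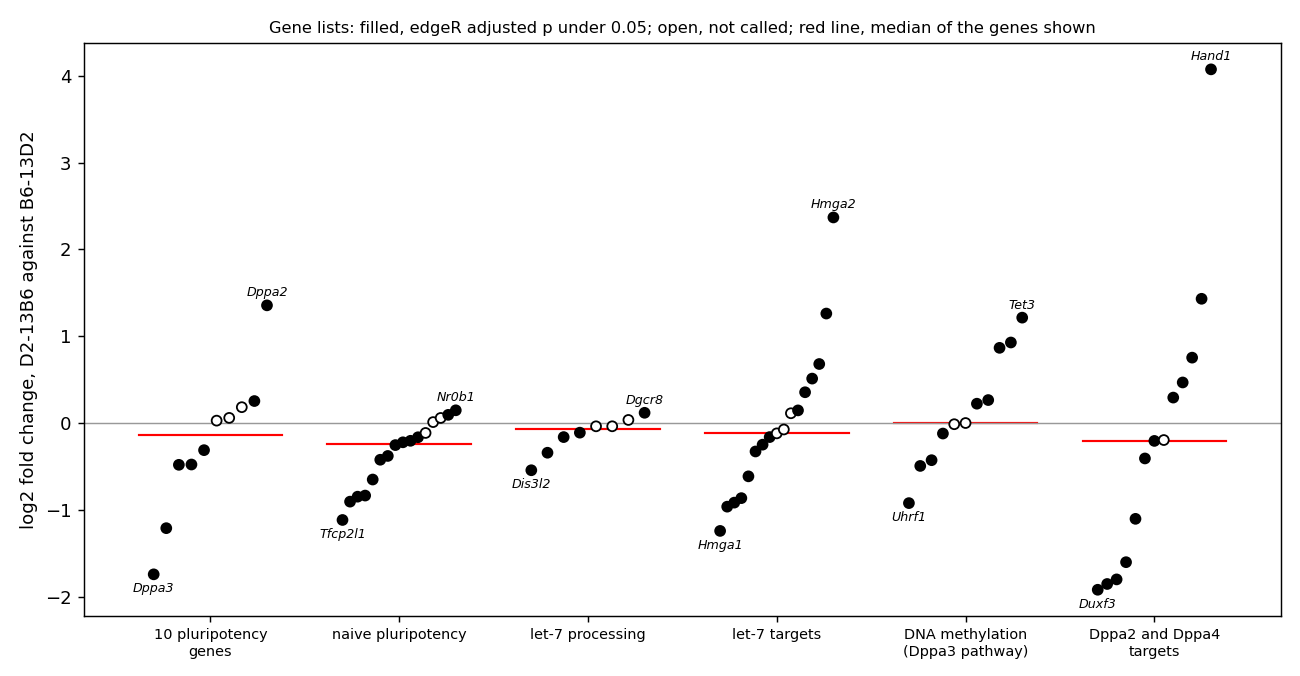
Log2 fold change in D2-13B6 against B6-13D2 of the 10 genes and of 5 lists of pathway genes; filled circles were called by edgeR at an adjusted p under 0.05, open circles were not, and red lines are medians of the genes shown. Median values were -0.14 for the 10 genes, -0.24 for naive pluripotency, -0.07 and -0.12 for let-7 processing and targets (17 with Imp3), 0.00 for DNA methylation and -0.20 for targets of Dppa2 and Dppa4.

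Genes with a pattern like that of Lin28a and Dppa3 were sought over the 12 libraries among 4271 genes whose log2 CPM averaged 2 or more and had an SD of 0.3 or more. The 12 points fall into 4 groups of 3 libraries, so r is a description. Closest to Lin28a were Pdxk, the pyridoxal kinase, with r = 0.9969, then Zfp989 (r = 0.9965) and Slc45a4 (r = 0.9961). Pdxk had 93.8 ± 3.72 CPM in B6, 90.8 ± 1.07 in B6-13D2, 44.1 ± 0.133 in D2, and 47.7 ± 1.34 in D2-13B6 (SD, n = 3). Zfp989 had 47.2 CPM in B6 and 5.72 in D2, with counts that were not whole. Closest to Dppa3 were Sfn (r = 0.9829), Glb1 (r = 0.9795) and Dusp27 (r = 0.9779), and the counts of Glb1 were not whole. Sfn, the 14-3-3 protein sigma, had 68.1 ± 1.56 CPM in B6, 46.7 ± 0.594 in B6-13D2, 29.5 ± 1.75 in D2, and 24.2 ± 0.626 in D2-13B6, the same order of groups as Dppa3.

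Tested genes that start within 250 kb of Lin28a on chromosome 4 numbered 13. Of these, 10 were called in D2-13B6 against B6-13D2 and all 10 were lower, beside 31.8% of all genes called lower; the median over the 13 was -0.38. All 8 fibroblast markers were higher in the same comparison, by 1.01 to 2.31, and their part in the changes of these neighbours and those of Dppa3 was not tested. Ubxn11 (-1.57, SE 0.0904) was the lowest, and Dhdds, the nearest start to that of Lin28a, changed by -0.38 (SE 0.0548). Of 12 tested neighbours of Dppa3 on chromosome 6, 3 were called lower and 6 higher (beside 38.4% of all genes called higher), with a median of 0.014. Nanog (-0.25), Gdf3 (-0.20) and Slc2a3 (-0.42) were those that fell, all smaller in size than Dppa3 at -1.74, and Foxj2 (1.12), Mfap5 (1.49) and C3ar1 (1.93) were among those that rose.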

How the data were processed

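RNA was measured in 12 libraries, 3 in each of 4 groups, and groups and replicate numbers were taken from the sample titles. The authors deposited expected counts, estimated read counts per Ensembl gene that need not be whole, made with EMASE per the file's title, which divides reads that map to several loci. Bowtie 1.0.0, edgeR 3.34.1 and mm10 are named in the submitters' processing notes without a role. The sequence the D2 reads were aligned to, the annotation and the use of strand are not given in the sources used here, and their part in strain differences was not tested; antisense and overlapping genes are uncertain. Symbols and positions came from GENCODE M21 (GRCm38), which held 42462 of 43346 gene IDs; the other 884 held 0.361% of reads. Every column was mapped to a library.

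Rounded counts entered edgeR 4.0.16 under R 4.3.3 (filterByExpr with a minimum count of 10, TMM, quasi-likelihood fit of 4 group means over all 12 libraries, common dispersion 0.001834, Benjamini-Hochberg adjustment over 17148 genes within each contrast, threshold 0.05). The SE of a log2 fold change is its size over the root of the F statistic. CPM per kilobase used the union of exons. Whole counts were judged to within 1e-06. No library repeated another of its group, since chi-square per degree of freedom over genes was 1.95 to 8.60. Scripts were tested on simulated data.

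The genes, the lists and the comparisons were chosen with earlier results of these data known. Genes named beside the 10 are the highest and lowest called of each list between the congenic lines, up to 4 more on which one of the 10 is known to act, the 3 most alike by r, and neighbours within 250 kb. Alternatives were a fit without the filter, a filter at mean CPM 1, RLE size factors, DESeq2 1.42.0, a block for the replicate number, a fit of the compared libraries alone, calls of log2 size 1 or more, and leaving out each library. Proteins, and promoters of the other 5 genes, were not used here.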

Additional observations from a re-analysis of the deposited data

Results flagged for a closer look

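For 9 of the 10 genes, the effect of exchanging the segment differed between backgrounds when the difference itself was tested, as (B6-13D2 minus B6) plus (D2-13B6 minus D2) in the same edgeR fit, beside 64.5% of all genes called in this contrast. The sum also holds anything that the congenic libraries share, which cannot be told apart from it. Dppa3 had the largest value in size, -1.77 (SE 0.179; edgeR adjusted p 9.69e-08), since it was lower in all 3 libraries of each congenic line than in any library of its background strain. Dppa5a stood at 0.80 (SE 0.0882; edgeR adjusted p 2.88e-07), higher in all 6 congenic libraries than in their background strain. Pou5f1 and Sox2 were both at 0.37 (SE 0.0634 and 0.0735; edgeR adjusted p 6.42e-05 and 0.000274). Lin28b was at 0.47 (SE 0.132; edgeR adjusted p 0.00493), Dppa4 at 0.36 (SE 0.0770; edgeR adjusted p 0.000511) and Utf1 at 0.23 (SE 0.0577; edgeR adjusted p 0.00225). Dppa2 was at -0.36 (SE 0.0707; edgeR adjusted p 0.000257) and Sall4 at -0.18 (SE 0.0490; edgeR adjusted p 0.00455), the latter lost with RLE size factors (-0.11, adjusted p 0.0522). Lin28a was not called, at 0.07 (SE 0.0550; edgeR adjusted p 0.258), and was called with RLE size factors (0.14, adjusted p 0.0344) and DESeq2 (adjusted p 0.0402). In the same contrast all 8 fibroblast markers were lower, by 1.02 to 2.65 in size (-1.02 to -2.65), and their part was not tested.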

How the results depend on the processing

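Of the 10 genes, the calls between the congenic lines held without the filter, with mean CPM 1 as the filter, with RLE size factors, in DESeq2, with the replicate block and in a fit of the compared libraries alone. Calls of log2 size 1 or more numbered 3 of the 10 (3786 genes), 0 in B6-13D2 against B6 (2478), 0 in D2-13B6 against D2 (1537) and 1 between congenic and parental lines (4392, on a sum of both differences), and took in 11.3% of genes in D2 against B6. Without the filter, which adds genes to those tested, 37.7% of genes were called at any size in D2 against B6, beside 60.0% with it. Of called genes the size limit moved the share that was higher from 54.7% to 68.4% between the congenic lines, from 43.5% to 23.9% in B6-13D2 against B6 and from 48.2% to 35.9% between congenic and parental lines. RLE size factors moved it from 43.5% to 52.0% in B6-13D2 against B6 and from 49.6% to 56.7% in D2 against B6. Values that changed sign were never called: Utf1 between the congenic lines (-0.0099 in the compared libraries alone, 0.0042 with mean CPM 1 as the filter; -0.0080 to 0.045 with libraries left out); Lin28b in B6-13D2 against B6 (0.062 with RLE size factors or DESeq2, 0.018 without the filter, 0.037 with mean CPM 1 as the filter, 0.035 in the compared libraries alone; -0.041 to 0.050 with libraries left out); and Dppa4 there (0.0041 with RLE size factors, 0.0042 with DESeq2; -0.10 to 0.028). The cause was not tested. Sox2 in D2-13B6 against D2 was called with no filter (0.11, adjusted p 0.0175). Leaving out each library gave 11405 to 12394, 9314 to 10323, 8795 to 9984 and 10600 to 11113 called genes in these 4 contrasts, with 7 to 8, 7 to 8, 9 and 9 of the 10 genes, and 53.7% to 59.4% in D2 against B6. The Lin28a ratio to the core factors ran from -0.98 to -0.93 and that of Dppa3 from -1.61 to -1.37, and that of Lin28a was -0.90 with Pou5f1 alone.

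The replicate numbers did not pair the libraries: deviations of same-numbered libraries correlated at -0.011 on average over 18 pairs, and 4 of 12 libraries correlated best with their own number. With the replicate block 11912, 9911, 9664 and 10966 genes and the same 7, 8, 9 and 9 of the 10 genes were called. Depth limits Dppa3, at 72 counts in 1 library, and Lin28b most.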

Other observations

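Markers of the 2-cell-like state, in which a few cultured stem cells express genes of the 2-cell embryo, had a pattern of their own beside the pluripotency genes. The 7 markers summed to 41.4 to 43.6 CPM in B6, 158 to 192 in D2, 36.6 to 37.6 in B6-13D2 and 27.7 to 31.3 in D2-13B6. Against D2, all 7 were called lower by edgeR in D2-13B6, beside 29.7% of all genes, by 2.44 to 3.44 in size (-2.44 to -3.44), while Dppa2 and Dppa4, on which this programme depends, were 0.25 and 0.42 higher. Zscan4c had 51.3 CPM in D2 and 8.39 in D2-13B6. Of the 8 fibroblast markers, 7 were also lower in this comparison, with a sum of 14177 to 16967 CPM in D2 and 7731 to 8055 in D2-13B6, and their part was not tested. Reads of these repeated genes can be divided among copies.

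Markers of the formative and primed epiblast, the states that follow naive pluripotency, summed to 109 to 118 CPM in B6, 202 to 215 in D2, 169 to 172 in B6-13D2 and 225 to 231 in D2-13B6. Dnmt3b, 1 of the 6 markers, made up most of each sum, so the sums describe mainly that gene. Its mean was 96.2 of 114 CPM for B6 libraries and 172 of 207 for D2 libraries. Among the congenic libraries it was 181 of 228 CPM with the D2 background, and 151 of 170 with the B6 background. The markers went both ways in B6-13D2 against B6, from -1.84 to 0.65, with 3 called higher and 2 lower. Of the 6, 4 were called higher and 1 lower in D2-13B6 than in B6-13D2, beside 38.4% and 31.8% of all genes. All 8 fibroblast markers were higher in that comparison, with a sum of 3095 to 3182 CPM in B6-13D2 and 7731 to 8055 in D2-13B6, and their part was not tested. Primitive endoderm markers summed to 85.0 to 108 CPM over the 12 libraries. Trophoblast markers summed to 71.9 to 85.8 CPM in B6, 65.9 to 69.0 in D2, 94.9 to 97.9 in B6-13D2 and 59.8 to 63.8 in D2-13B6. All 4 mesoderm markers were called higher in D2-13B6 than in B6-13D2, by 0.90 to 4.07, from a mean sum of 2.57 CPM to 11.0. Of 4 neural markers 3 were called higher and 1 lower.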
